A study of Mus musculus with 9 samples.

Results

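Myh3, Myh8, Actc1, Myl4 and Tnnt2 encode sarcomere proteins that skeletal muscle uses mainly before birth or shares with the heart, and their RNA was followed in the gastrocnemius, the large and mainly fast calf muscle, of mice. They were taken by symbol. All 5 were found among the 56791 genes of the deposited count table, and all 5 were among the 17534 genes that passed the filter on low counts. The 9 libraries came from 3 groups of 3, all of the same muscle and, per the series title, of female mice. Aged mice labelled GB, which the title gives as ginkgolide B, received 12 mg per kg of body weight by daily oral gavage over 2 months. Aged vehicle mice and young vehicle mice were gavaged with saline for as long. Sample titles also carry 3M (young vehicle) and 23M (aged vehicle), with no such tag on GB. Whether replicates were separate animals is not stated in the labels, and p-values therefore measure a spread between libraries that may be technical.

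The sarcomere is built from thick filaments of myosin and thin filaments of actin, with troponin and tropomyosin setting when the filaments can engage. Each of these proteins comes in isoforms, and a limb muscle replaces its embryonic and perinatal isoforms with adult fast or slow ones as it matures. Embryonic and perinatal myosin reappears in fibres that regenerate, and cardiac actin and cardiac troponin T are made in developing skeletal muscle as well as in the heart.

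Total counts were 39478427 to 44294097 in the aged GB libraries, 52068522 to 54095457 in the aged vehicle libraries and 51543383 to 61680520 in the young vehicle libraries. Levels are given as CPM, counts relative to the library total after TMM scaling, which corrects totals for composition. Replicates of a group differed by more than sampling noise. Muscle fibre markers summed to 116028 to 131428 CPM in aged GB libraries and 68407 to 76328 CPM in aged vehicle libraries. In young vehicle libraries they summed to 93965 to 103732 CPM. The markers did not all move alike. Acta1, Mylpf and Des were higher in aged GB than in aged vehicle libraries, while Mb averaged 269 CPM in the first and 2535 CPM in the second. The GB libraries stood apart from both vehicle groups: they held a count for 18678 to 19362 genes, against 22616 to 24185 in the vehicle libraries. No batch is labelled, and the effect of library preparation cannot be told apart from that of GB. Young vehicle replicate 1 stood apart in heart markers, which is described with Tnnt2. In bulk tissue, fewer cells of a type and less RNA per cell cannot be told apart.

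Aged muscle was first set against young muscle, both under vehicle, and 1 of the 5 genes differed. Actc1, the actin of the adult heart, was 14.1-fold lower in aged vehicle than in young vehicle libraries. Myh3, Myh8, Myl4 and Tnnt2 had log2 fold changes between -0.49 and 0.04 and did not pass the test (edgeR adjusted p = 0.512 to 0.965). Over all genes tested, 8.6% were called at an adjusted p under 0.05, 4.28% lower and 4.32% higher. The count of 1 in 5 is therefore read from Actc1 itself, which had the lowest p of all 17534 genes, and not from the set.

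The second comparison set aged GB against aged vehicle muscle. Actc1 and Myl4, an embryonic and atrial myosin light chain, rose by 0.62 and 0.99 on the log2 scale, and Myh8, the perinatal myosin heavy chain, fell by 0.75. These 3 of 5 stand against a background of 53.2% of all genes called, 24.4% higher and 28.8% lower, so the share is near that of any gene. The libraries of the 2 groups did not overlap for 4 of the 5 genes, and for 59.7% of all genes. All 3 calls were lost when each library was corrected for its trend of counts on transcript length, described further on. With the gene lengths of the deposited table in that correction, Myl4 kept its call and Actc1 and Myh8 lost theirs. Actc1 stayed 9.16-fold lower in aged GB than in young vehicle libraries (log2 fold change -3.20, SE 0.11, edgeR adjusted p = 6.55e-10). The comparison of aged GB with young vehicle shares its samples with the other two, and 53.6% of all genes were called in it, 24.7% higher and 29% lower. In it, 3 of the 5 genes had libraries that did not overlap, as had 60.7% of all genes.

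**Figure D1:**
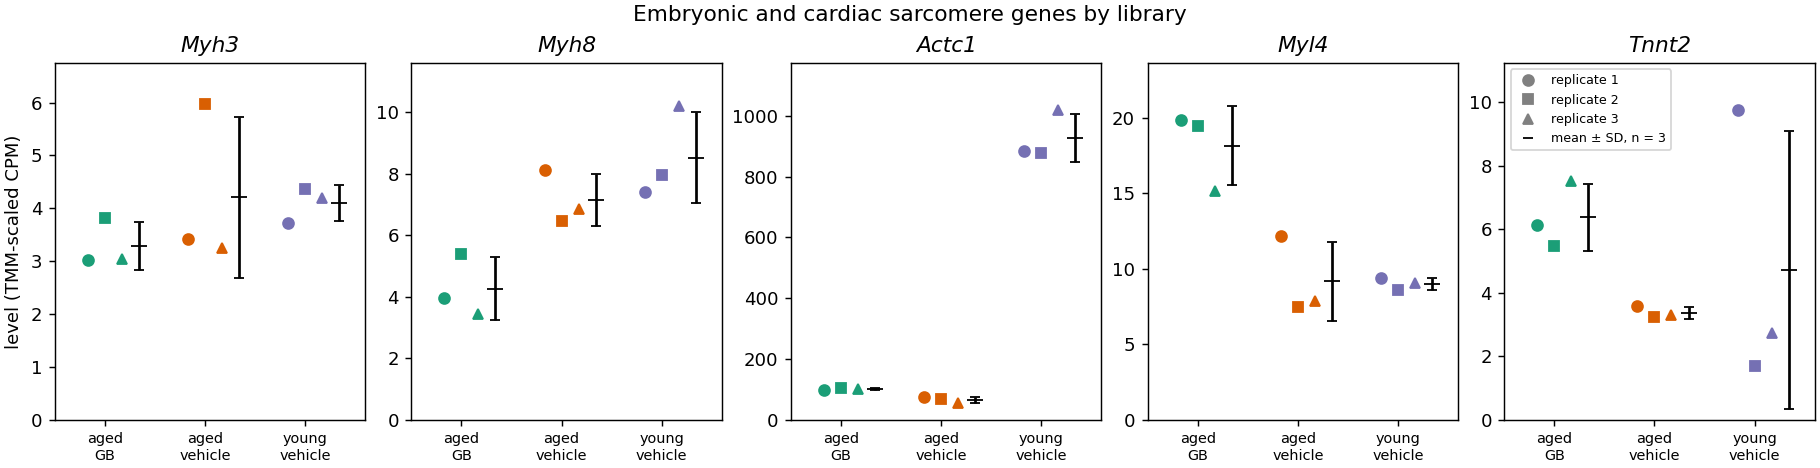
Level of each gene in TMM-scaled CPM (y axis, linear, from 0, a scale of its own per gene) in the aged GB, aged vehicle and young vehicle libraries. Each point is a library, with the mean and SD of 3 beside it: Actc1 lies between 55.6 and 105 CPM in all 6 aged libraries and between 877 and 1019 CPM in the young ones, and Tnnt2 is at 9.74 CPM in 1 young library.

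Among the thin filament genes, Actc1 encodes cardiac alpha actin, which differs little from the skeletal alpha actin encoded by Acta1. The windows of 250 bases before the 2 gene starts are shown because only Actc1 lost most of its RNA with age while its skeletal counterpart stayed abundant. They are RefSeq sequence of build GRCm38.p6, written 5′ to 3′ along the gene, with the CArG box, the site of serum response factor, in capitals. Actc1 lies on the minus strand at chr2:114052876-114053125 and Acta1 on the minus strand at chr8:123894776-123895025.
Actc1: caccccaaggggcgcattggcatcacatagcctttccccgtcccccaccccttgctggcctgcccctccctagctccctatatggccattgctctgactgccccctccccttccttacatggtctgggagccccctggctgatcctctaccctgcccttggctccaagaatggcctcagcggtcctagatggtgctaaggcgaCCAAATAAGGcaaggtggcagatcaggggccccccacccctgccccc
Acta1: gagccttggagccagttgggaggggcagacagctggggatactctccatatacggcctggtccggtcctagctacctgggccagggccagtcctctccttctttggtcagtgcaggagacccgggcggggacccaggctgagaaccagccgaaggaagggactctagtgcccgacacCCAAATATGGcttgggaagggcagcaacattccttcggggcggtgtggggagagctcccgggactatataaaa
The CArG box began 47 bases before the start of Actc1 and 73 bases before that of Acta1. Of 32851 such windows of mouse genes, 1.47% hold a CArG box, with each motif searched on both strands. The Acta1 window also held 2 E-boxes (CANNTG, in 66.2% of windows) and 1 MCAT element (CATTCC, in 12.6% of windows), and the Actc1 window held neither. Matches in these windows did not overlap. A match describes letters in the window and is not evidence of binding.

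Actc1 had 96.6, 105 and 102 CPM in the aged GB libraries, 74.4, 67.9 and 55.6 CPM in the aged vehicle libraries and 885, 877 and 1019 CPM in the young vehicle libraries. The 3 groups did not overlap (34.4% of all genes did not overlap between aged and young vehicle): every young library was far above every aged one, and each GB library was above each aged vehicle library. In the age comparison the log2 fold change was -3.81 (SE 0.12, edgeR adjusted p = 5.02e-09). Among the 1228 genes whose mean reached 100 CPM in either group, Actc1 had the 4th lowest log2 fold change. The value lay between -3.91 and -3.70 under every alternative run. The difference between ages was thus large under every setting tried, and the raw counts were 3386 to 4301 in aged vehicle libraries and 50567 to 70801 in young vehicle libraries.

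Between aged GB and aged vehicle libraries the log2 fold change of Actc1 was 0.62 (SE 0.11, edgeR adjusted p = 0.000314). It was 0.05 (adjusted p = 0.662) with library totals in place of TMM factors. The median of all genes was -0.05 with TMM and -0.62 with totals. Called genes split into 4281 higher and 5045 lower with TMM, and into 2030 higher and 8421 lower with totals. A change of scaling moves all genes alike, so the gap between Actc1 and that median is nearly the same under both by construction. The median of genes with about the same transcript length as Actc1 was 0.51 with TMM.

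Acta1, the actin of adult skeletal muscle, averaged 56193 ± 3921 CPM in aged GB libraries, 23969 ± 1642 CPM in aged vehicle libraries and 30965 ± 2522 CPM in young vehicle libraries (SD, n = 3 each). It rose with GB by 1.23 on the log2 scale (SE 0.09, edgeR adjusted p = 1.87e-07). With age its log2 fold change was -0.37 (SE 0.09, edgeR adjusted p = 0.0209), a call lost without young replicate 2 or 3 or aged vehicle replicate 1 or 3, where the adjusted p was 0.0619 to 0.0901.

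A ratio of isoforms within a library does not depend on how libraries are scaled to each other. Of the counts per kilobase of Acta1 and Actc1 together, Actc1 took 0.175, 0.166 and 0.172% in the aged GB libraries, 0.318, 0.255 and 0.214% in the aged vehicle libraries and 2.91, 2.49 and 2.91% in the young vehicle libraries. The groups did not overlap, with GB lowest and young highest. The mean share was 10.6-fold lower in aged vehicle than in young vehicle libraries and 1.54-fold lower in aged GB than in aged vehicle libraries. Each of these had an exact permutation p of 0.1, two-sided, the smallest that 3 against 3 allows, and 0.2 adjusted over the 12 share tests. So the share of Actc1 in actin was lower with GB while its CPM was higher, because Acta1 was higher by more.

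**Figure D2:**
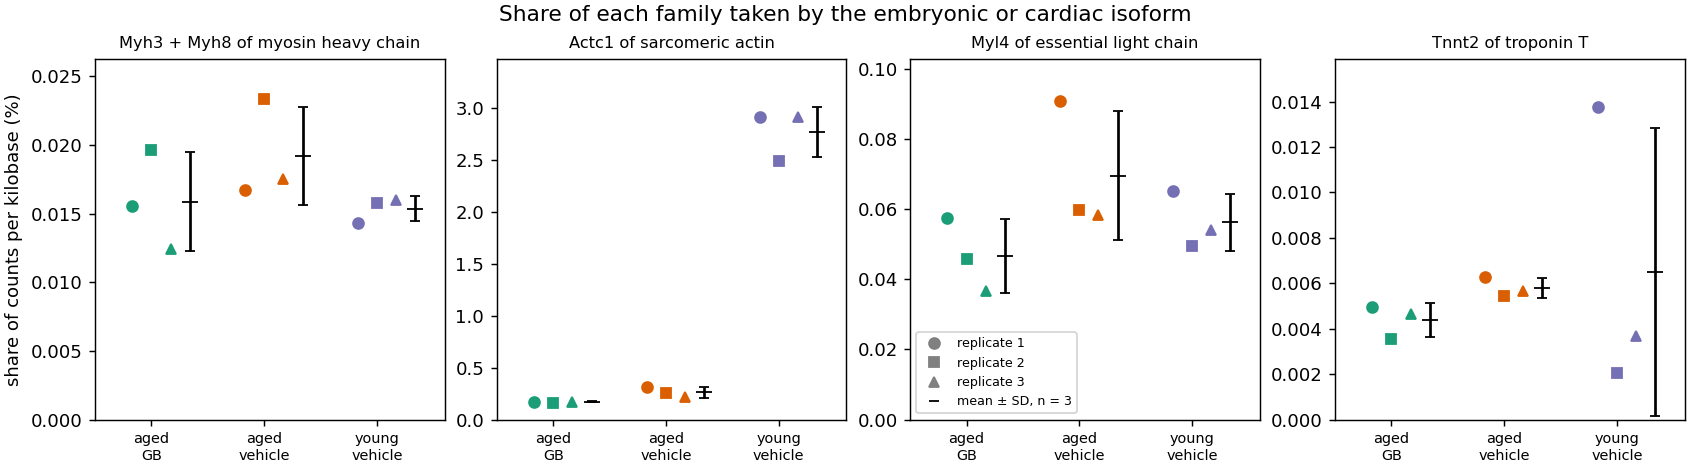
Share of counts per kilobase (percent, y axis from 0, a scale of its own per panel) that the embryonic or cardiac isoform took of its protein family in each library, with the mean and SD of 3 per group. The young libraries have 2.49 to 2.91% Actc1, far above all aged ones, at 0.166 to 0.318%, and with the table's lengths the other isoforms stay under 0.1% of their family in all 9 libraries.

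Tnnt2 encodes cardiac troponin T, which anchors the troponin complex to tropomyosin. Tnnt2 had 6.13, 5.46 and 7.52 CPM in the aged GB libraries, 3.57, 3.24 and 3.28 CPM in the aged vehicle libraries and 9.74, 1.68 and 2.72 CPM in the young vehicle libraries. Each GB library was above each aged vehicle library, and the young libraries spanned both groups, since replicate 1 was 4.42-fold above the mean of replicates 2 and 3. With all libraries no comparison of Tnnt2 passed the test: the log2 fold change was -0.49 with age (SE 0.53, edgeR adjusted p = 0.658), 0.92 for aged GB minus aged vehicle (SE 0.53, adjusted p = 0.177) and 0.43 for aged GB minus young vehicle (SE 0.53, adjusted p = 0.521).

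Young replicate 1 also held other heart genes. The 12 heart tissue markers summed to 4.77 to 5.70 CPM in aged GB libraries, 5.59 to 6.03 CPM in aged vehicle libraries and 43.4 CPM in young replicate 1, against 3.70 and 3.90 CPM in the other 2 young libraries. All 12 had a count there, against 5 to 8 in each other library, and 7 of the 12 were highest there. Nkx2-5 and Gata4, transcription factors of the heart, had 20 and 12 counts in young replicate 1 and 0 in each of the other 8 libraries. Myh6, the alpha myosin heavy chain of the heart, was at 34.4 CPM there and at 2.50 and 2.66 CPM in young replicates 2 and 3. Mybpc3, cardiac myosin binding protein C, had 289 counts there and 4 and 0 counts in the other 2 young libraries. Nkx2-5, Gata4, Myh6 and Mybpc3 were chosen for mention after their values were seen. Of the 6 heart markers that could be tested, 0 were called with age by edgeR (2 lower at an unadjusted p under 0.05, and 0 by DESeq2 and limma-voom), and 2 (Tnni3 and Hand2) were higher and 1 (Tbx20) lower with GB, 3 of 6 beside 53.2% of all genes called. These 3 calls rest on few counts and are not read as a result about the markers. Hand2 had 2 to 19 counts per aged GB library and 0 in each aged vehicle library. Tbx20 had 0 in each aged GB library and 10 to 14 per aged vehicle library, and Tnni3 had 24 to 44 and 5 to 12. Leaving out any 1 aged library left 1 higher and 0 lower with GB, and DESeq2 and limma-voom each called 1 higher and 1 lower. The part of these genes in the level of Tnnt2 was not tested.

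The other 4 genes did not stand apart in that library: young replicate 1 was at 0.93-fold of the mean of replicates 2 and 3 for Actc1, 0.87-fold for Myh3, 0.81-fold for Myh8 and 1.06-fold for Myl4. Without young replicate 1, Actc1 had a log2 fold change with age of -3.84. The age difference of Actc1 is therefore as large without the library that holds heart transcripts. For Tnnt2 the log2 fold change with age turned to 0.61 without that library (edgeR adjusted p = 0.22, not called), and Tnnt2 was then called higher in aged GB than in aged vehicle libraries (0.91, adjusted p = 0.00586) and than in young vehicle libraries (1.52, adjusted p = 0.000541). A fit of the aged GB and aged vehicle libraries alone gave 0.92 (adjusted p = 0.00458).

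**Figure D3:**
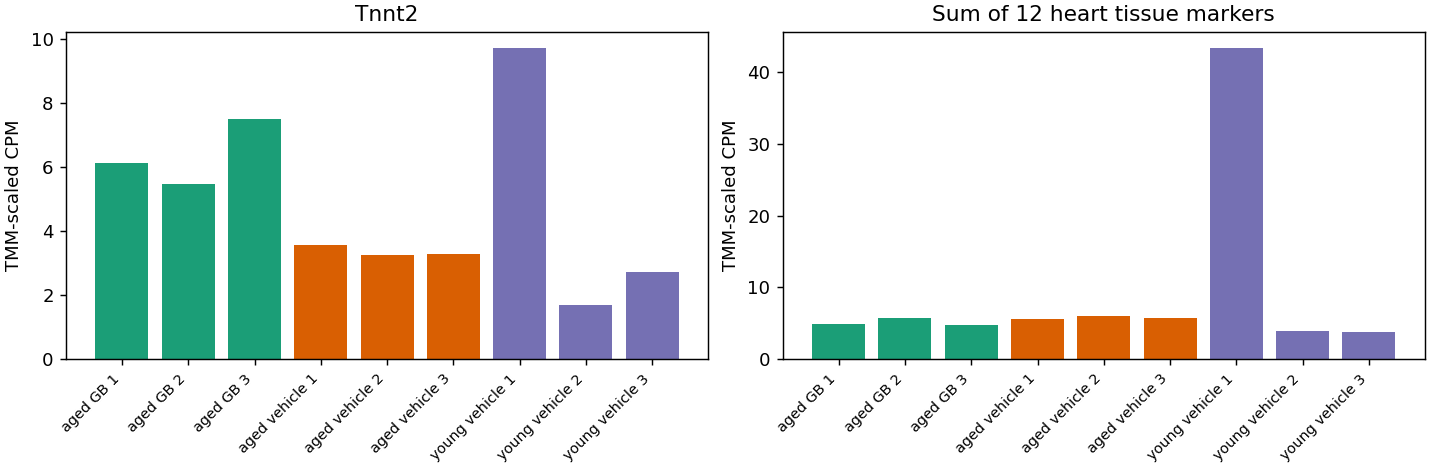
Tnnt2 (left) and the sum of 12 heart tissue markers (right), in TMM-scaled CPM from 0, with 1 bar per library and no error bars. Young vehicle replicate 1 is highest in both, at 9.74 CPM for Tnnt2 and 43.4 CPM for the markers, and the other 8 libraries have marker sums of 3.70 to 6.03 CPM.

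Tnnt2 was a minor troponin T in all libraries. Of the counts per kilobase of Tnnt1, Tnnt2 and Tnnt3 it took 0.00438 ± 0.00075% in aged GB libraries, 0.00580 ± 0.00044% in aged vehicle libraries and 0.00650 ± 0.0063% in young vehicle libraries (SD, n = 3 each). These shares use the lengths of the deposited table. Per kilobase of the longest coding transcript, which is shorter for Tnnt2, they were 0.0192 ± 0.0033% in aged GB libraries, 0.0255 ± 0.0019% in aged vehicle libraries and 0.0284 ± 0.028% in young vehicle libraries. By either length the aged GB libraries all lay below the aged vehicle libraries, with an exact permutation p of 0.1 by the table's lengths (0.2 adjusted over 12 tests). Tnnt3, the fast skeletal troponin T, rose with GB by 1.33 on the log2 scale (SE 0.10, edgeR adjusted p = 2.68e-07). Tnnt1, the slow skeletal troponin T, averaged 256 ± 60.3 CPM in aged GB libraries, 5.61 ± 0.75 CPM in aged vehicle libraries and 177 ± 26.8 CPM in young vehicle libraries.

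In the thick filament, Myh3 encodes the embryonic and Myh8 the perinatal myosin heavy chain, the motor proteins of developing fibres. Both lie on chromosome 11 in a cluster ordered Myh3, Myh2, Myh1, Myh4, Myh8, Myh13. The windows before their starts are shown because these 2 developmental genes flank the adult fast heavy chains of the cluster. They are RefSeq sequence of build GRCm38.p6 on the plus strand, at chr11:67078050-67078299 for Myh3 and chr11:67276874-67277123 for Myh8, with the E-box, the site of the MyoD family, in capitals.
Myh3: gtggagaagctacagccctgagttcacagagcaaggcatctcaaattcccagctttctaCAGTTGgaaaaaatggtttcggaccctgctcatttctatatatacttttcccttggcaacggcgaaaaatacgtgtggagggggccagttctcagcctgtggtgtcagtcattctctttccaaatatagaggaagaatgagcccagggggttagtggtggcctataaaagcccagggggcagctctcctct
Myh8: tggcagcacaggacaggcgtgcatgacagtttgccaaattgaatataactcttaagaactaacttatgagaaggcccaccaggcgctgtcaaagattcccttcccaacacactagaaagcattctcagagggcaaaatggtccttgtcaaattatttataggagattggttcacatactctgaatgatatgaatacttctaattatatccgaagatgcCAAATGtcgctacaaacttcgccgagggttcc
Each window held 1 E-box, which began 191 bases before the start of Myh3 and 32 bases before that of Myh8, and 66.2% of all windows hold at least 1. Neither held a CArG box or an MCAT element. Nothing about the factors follows from letters that are absent from these windows.

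Myh3 had 3.02, 3.81 and 3.04 CPM in the aged GB libraries, 3.41, 5.97 and 3.25 CPM in the aged vehicle libraries and 3.72, 4.37 and 4.20 CPM in the young vehicle libraries. The groups overlapped, and aged vehicle replicate 2 was the highest of all 9 libraries. The log2 fold change was 0.04 with age (SE 0.25, edgeR adjusted p = 0.954), -0.36 for aged GB minus aged vehicle (SE 0.26, adjusted p = 0.267) and -0.32 for aged GB minus young vehicle (SE 0.26, adjusted p = 0.325). Raw counts of 95 to 378 per library lay behind these values. With library totals Myh3 was called lower with GB (-0.93, edgeR adjusted p = 0.00855).

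Myh8 had 3.94, 5.40 and 3.42 CPM in the aged GB libraries, 8.11, 6.47 and 6.85 CPM in the aged vehicle libraries and 7.39, 7.96 and 10.2 CPM in the young vehicle libraries. Each GB library was below each vehicle library, and the aged and young vehicle libraries overlapped. Myh8 fell with GB by 0.75 on the log2 scale (SE 0.21, edgeR adjusted p = 0.00899) and was lower in aged GB than in young vehicle libraries (-0.999, SE 0.21, adjusted p = 0.00136). With age it had -0.25 (SE 0.20, adjusted p = 0.512). The fall was called without each library in turn, at -0.96 to -0.62, and was -1.31 with library totals.

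Reads of the heavy chain genes can be hard to assign. Of all stretches of 50 bases in the longest coding transcript, 21.4% in Myh8 and 4.81% in Myh3 also occur in another gene, in each case including Myh1, Myh2, Myh4 and Myh13. For Myh8 the other genes include Myhas and 9430073C21Rik, and the use of strand in counting is not given in the sources used here, so reads of such partners cannot be told apart. Actc1, Myl4 and Tnnt2 share 0% of such stretches with other genes. For stretches of 100 bases the shares were 6.61% in Myh8 and 1.15% in Myh3. These percentages do not bound the error in Myh3 and Myh8, as Myh1 and Myh4 hold far more counts. In aged vehicle libraries Myh4 averaged 29801 CPM and Myh1 10970 CPM, against 7.14 CPM for Myh8 and 4.21 CPM for Myh3. A small part of misassigned reads could thus weigh heavily on the values of Myh3 and Myh8, and its size was not tested.

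Some heavy chains of the same cluster had larger fold changes. Myh1, the IIx heavy chain, averaged 596 ± 58.7 CPM in aged GB libraries, 10970 ± 1464 CPM in aged vehicle libraries and 3230 ± 663 CPM in young vehicle libraries (SD, n = 3 each). Its values on the log2 scale were -4.20 with GB and 1.76 with age. Myh13, the extraocular heavy chain next to Myh8, was chosen for mention after its values were seen and averaged 2.55 ± 0.37 CPM in aged GB libraries, 7.44 ± 1.39 CPM in aged vehicle libraries and 3.59 ± 0.59 CPM in young vehicle libraries. Myh1 and Myh13 were called higher with age and lower with GB, the age call of Myh13 being lost without young replicate 3 (edgeR adjusted p = 0.06), and Myh8 was called with GB alone. The differences between these genes were not tested.

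Of all sarcomeric heavy chain counts per kilobase, Myh3 and Myh8 together took 0.0155, 0.0196 and 0.0124% in the aged GB libraries, 0.0167, 0.0233 and 0.0175% in the aged vehicle libraries and 0.0143, 0.0158 and 0.0160% in the young vehicle libraries. The aged vehicle libraries all lay above the young ones, by a ratio of 1.25 in the mean, with an exact permutation p of 0.1 (0.2 adjusted over 12 tests). Neither Myh3 nor Myh8 was itself called with age. Myh4, which had the most counts, and Myh2 fell with age by 0.71 and 1.74 on the log2 scale, and Myh1 rose by 1.76. Per kilobase of the longest coding transcript the share averaged 0.0269 ± 0.0031% in aged vehicle libraries and 0.0223 ± 0.0016% in young vehicle libraries. The GB libraries overlapped both vehicle groups.

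Myl4 encodes the essential myosin light chain of embryonic muscle and of the atria, whose adult counterparts are Myl1 in fast and Myl3 in slow fibres. Myl4 had 19.9, 19.4 and 15.2 CPM in the aged GB libraries, 12.2, 7.45 and 7.87 CPM in the aged vehicle libraries and 9.40, 8.61 and 9.07 CPM in the young vehicle libraries. Each GB library was above each vehicle library, and the aged and young vehicle libraries overlapped. Myl4 rose with GB by 0.99 on the log2 scale (SE 0.19, edgeR adjusted p = 0.000736) and was higher by 1.01 in aged GB than in young vehicle libraries (SE 0.19, adjusted p = 0.000607). With age it had 0.02 (SE 0.19, adjusted p = 0.965). With library totals the log2 fold change with GB was 0.43 (adjusted p = 0.0577).

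Myl1 and Myl3 were higher with GB by more, at log2 fold changes of 1.58 (SE 0.10) and 1.79 (SE 0.19). Of the counts per kilobase of Myl1, Myl3, Myl4 and Myl6b, Myl4 therefore took less with GB: 0.0576, 0.0458 and 0.0366% in the aged GB libraries, 0.0906, 0.0596 and 0.0582% in the aged vehicle libraries and 0.0651, 0.0494 and 0.0540% in the young vehicle libraries. The size of this share depends on the length used: per kilobase of the longest coding transcript it averaged 0.119 ± 0.027% in aged GB libraries, 0.178 ± 0.047% in aged vehicle libraries and 0.143 ± 0.020% in young vehicle libraries. By either length the aged GB libraries all lay below the aged vehicle libraries, with an exact permutation p of 0.1 by the table's lengths (0.2 adjusted over 12 tests). The level of Myl4 was higher with GB and its share of the family was lower, as for Actc1.

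The GB comparison followed transcript length across the table, and the 5 genes lie along that trend. Over 17534 genes, the Spearman correlation of log2 fold change with transcript length was -0.41 for aged GB minus aged vehicle. It was 0.00037 for aged vehicle minus young vehicle. Lengths were those of matched transcripts for 16691 genes and those of the deposited table for the rest. The median GB fold change of genes of about the same transcript length was -0.59 for Myh3, -0.61 for Myh8, 0.51 for Actc1, 0.92 for Myl4 and 0.66 for Tnnt2 on the log2 scale, beside -0.36, -0.75, 0.62, 0.99 and 0.92 for the genes themselves. With each library's length trend as an offset, a correction added after the data were seen, 0 of 5 were called by edgeR, and 0 at an unadjusted p under 0.05. The log2 fold changes were then 0.25 for Myh3, -0.12 for Myh8, 0.05 for Actc1, 0.03 for Myl4 and 0.16 for Tnnt2. What links length and fold change in the GB libraries was not tested.

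The length column of the deposited table differs from these transcript lengths for Myl4 (4637 against 943 bases), Tnnt2 (7728 against 1200 bases) and Myh8 (11772 against 6149 bases). With the trend on the table's length, Myl4 kept its call (1.09, edgeR adjusted p = 0.000564), Myh8 and Actc1 lost theirs (-0.05 and -0.04, adjusted p = 0.852 and 0.789) and Tnnt2 had 1.36 (adjusted p = 0.062). With age, Actc1 had a log2 fold change of -3.79 with the trend on the table's length and -3.80 with that on transcript length.

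**Figure D4:**
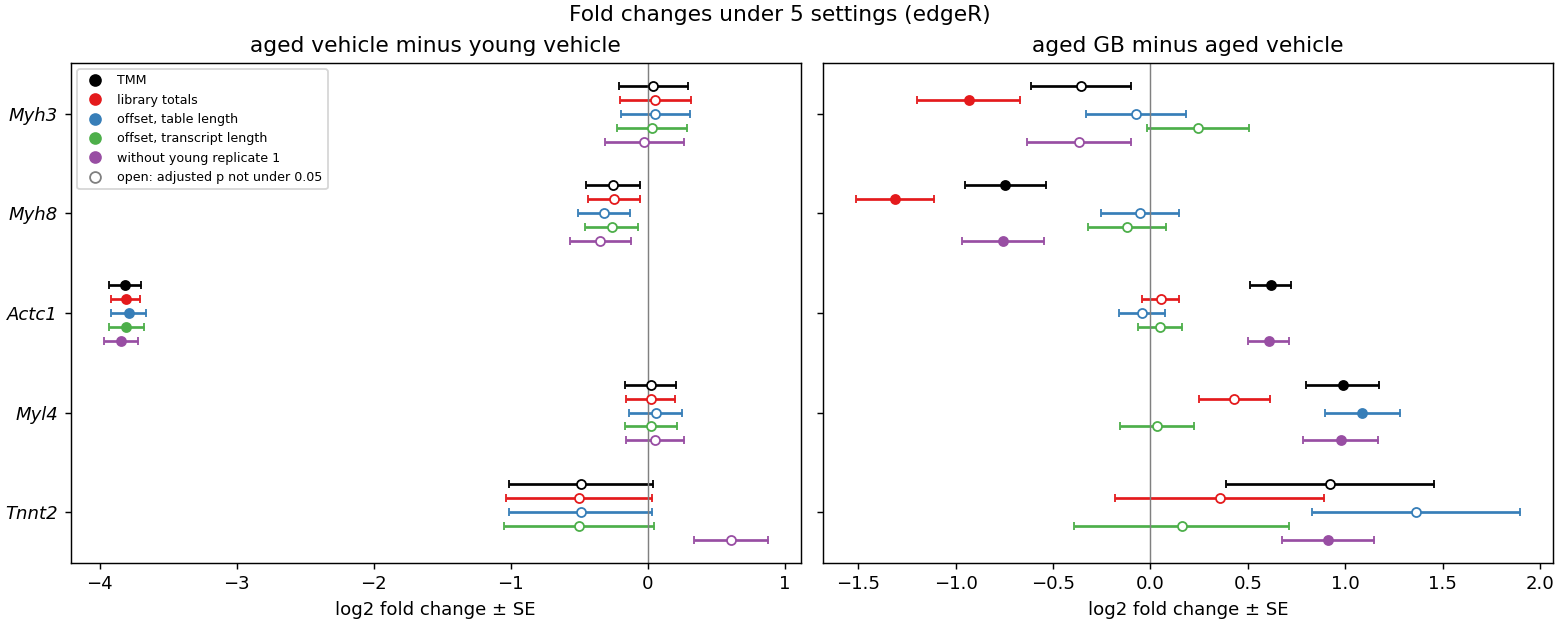
Log2 fold change (x axis, with SE) of each gene in aged vehicle minus young vehicle (left) and aged GB minus aged vehicle (right) under 5 settings of edgeR, with filled points where the adjusted p was under 0.05 and open points elsewhere. Actc1 stays near -3.81 with age in all 5, while its value with GB is between -0.04 and 0.62 and the offset for transcript length leaves no filled point on the right.

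Levels per kilobase set the genes in order within a group. Using the table's lengths, Actc1 came first in every group, at 62.6 ± 2.70 RPKM in aged GB libraries, 40.8 ± 5.89 RPKM in aged vehicle libraries and 573 ± 49.2 RPKM in young vehicle libraries. Myl4 came next, at 3.92 ± 0.56 RPKM in aged GB libraries, 1.98 ± 0.57 RPKM in aged vehicle libraries and 1.95 ± 0.086 RPKM in young vehicle libraries, and within each group its libraries did not overlap those of another member. Tnnt2, Myh3 and Myh8 each averaged under 1 RPKM in every group. By the mean, Tnnt2 led these in aged GB libraries, at 0.82 ± 0.14 RPKM, and was last in both vehicle groups. In young vehicle libraries Tnnt2 spanned 0.22 to 1.26 RPKM and overlapped Myh3 and Myh8, so its place there is not firm. Myh3 and Myh8 overlapped in both vehicle groups but not in aged GB libraries. Per kilobase of the longest coding transcript, the order of the means after Myl4 was Tnnt2, Myh8 and Myh3 in all 3 groups. Tnnt2 and Myh8 overlapped in young vehicle libraries, and Myh8 and Myh3 in aged GB libraries.

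Slow fibre genes, several of which limb muscle shares with the heart, were a further group of sarcomere and calcium handling genes. Tnnt1, the slow skeletal troponin T, is among them. All 8 (Myh7, Myl2, Myl3, Tnnc1, Tnni1, Tnnt1, Tpm3 and Atp2a2) fell with age, with a median log2 fold change of -4.75, beside -0.0022 over all genes, where 4.28% were called lower. Myh7, the slow and ventricular heavy chain, averaged 35.9 ± 8.20 CPM in aged GB libraries, 3.82 ± 1.65 CPM in aged vehicle libraries and 432 ± 131 CPM in young vehicle libraries (SD, n = 3 each). All 8 rose with GB, with a median of 4.21, beside -0.05 over all genes, where 24.4% were called higher, and all 8 were also called higher with library totals and with either length offset. Both comparisons use the same aged vehicle libraries.

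The GB fold change of Actc1, 0.62, was smaller than that of each of the 8, which lay between 1.79 for Myl3 and 7.29 for Myl2, the slow regulatory light chain, and the difference between the genes was not tested. Myl2 averaged 455 ± 57.5 CPM in aged GB libraries, 2.89 ± 1.96 CPM in aged vehicle libraries and 216 ± 24.6 CPM in young vehicle libraries (SD, n = 3 each). Actc1 averaged 101 ± 4.37 CPM in aged GB libraries, 66.0 ± 9.53 CPM in aged vehicle libraries and 927 ± 79.7 CPM in young vehicle libraries. The mean in aged GB libraries was thus above the young one for Myl2 and Tnnt1 and far below it for Actc1 and Myh7.

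**Figure D5:**
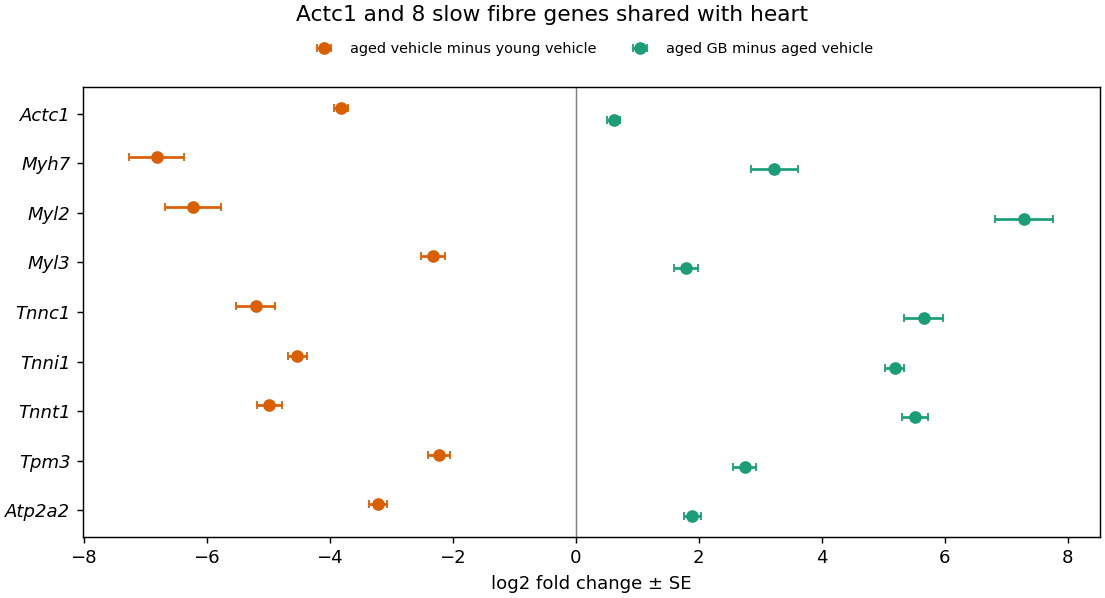
Log2 fold change with SE (x axis) of Actc1 and of 8 slow fibre genes, several of them shared with the heart. Aged vehicle minus young vehicle is in orange and aged GB minus aged vehicle in green. All 9 lie left of 0 with age, and with GB the 8 slow genes lie between 1.79 and 7.29 and Actc1 at 0.62.

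Of 10 other cardiac-type sarcomere genes, 8 were tested, and with age 1 was called lower and 0 higher by edgeR, where 4.28% of all genes were called lower and 4.32% higher (3 lower and 0 higher at an unadjusted p under 0.05, and 2 lower by DESeq2 and by limma-voom). The 1 was Myoz2, a Z-disc protein of slow and cardiac muscle, at -1.44 (SE 0.32, adjusted p = 0.0309), and the call was lost without each of young replicates 1, 2 and 3, aged vehicle replicate 3 and GB replicate 1. With GB 2 rose and 3 fell, where 24.4% of all genes rose and 28.8% fell, so the share called is near that of any gene. Those that fell included Myom2, an M-band protein of fast fibres and heart, at -1.14, and Actn2, an alpha actinin of skeletal and cardiac muscle, at -0.86.

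Adult fast sarcomere genes gave 1 higher and 7 lower of 13 with age, beside 4.32% and 4.28% of all genes. Mybpc2, the fast myosin binding protein C, fell by 0.63 on the log2 scale (SE 0.12), and Myh4, the IIb heavy chain, by 0.71 (SE 0.12). With GB 8 rose and 3 fell, beside 24.4% and 28.8% of all genes, and with library totals 7 were higher and 5 lower. Smooth muscle genes, whose own actin Acta2 resembles Actc1, went the other way with age: 4 of 6 rose, beside 4.32% of all genes, and 0 fell (5 higher and 0 lower at an unadjusted p under 0.05, and 0 lower by DESeq2 and limma-voom). Acta2 averaged 75.7 ± 14.5 CPM in aged GB libraries, 115 ± 17.5 CPM in aged vehicle libraries and 32.2 ± 3.98 CPM in young vehicle libraries.

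Genes of denervation and regeneration, states in which Myh3 and Myh8 are known to reappear, moved in part. Of 20, 6 rose, 2 fell and 12 were not called with age, beside 4.32% of all genes called higher and 4.28% lower. Their median log2 fold change was 0.76, beside -0.0022 over all genes. The 6 included Dach2, described below, and the 2 that fell were Mybph (-1.29) and Myl6b (-0.93). The call of Myl6b was lost in 5 of 20 alternatives. Chrng, the fetal acetylcholine receptor subunit, had 129, 45 and 129 counts in aged vehicle libraries and 2, 0 and 7 counts in young vehicle libraries, 5.16 on the log2 scale (SE 1.03, edgeR adjusted p = 0.00963, and 0.0566 by limma-voom). Ankrd1, a stress-responsive titin binding protein, averaged 20.5 ± 6.80 CPM in aged vehicle libraries and 3.69 ± 0.66 CPM in young vehicle libraries, and rose by 2.48 (SE 0.24). Myog, a transcription factor of differentiating muscle cells, had 0.67 (SE 0.29, adjusted p = 0.192). Chrng and Ankrd1 thus differed with age in the same libraries in which Myh3 and Myh8 were not called.

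With GB, 5 of these 20 rose and 3 fell, beside 24.4% and 28.8% of all genes, so the higher share is near and the lower share below that of all genes, and with library totals 3 were higher and 9 lower. Dach2, a transcriptional repressor that declines after denervation in mouse muscle, rose by 1.27 with age (SE 0.24) and fell by 2.42 with GB (SE 0.26). Chrng had 38, 58 and 4 counts in the aged GB libraries and a log2 fold change of -0.72 against aged vehicle (SE 0.80, edgeR adjusted p = 0.478).

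Markers of satellite cells, the stem cells of muscle, and of intrafusal fibres, the fibres of muscle spindles that keep developmental myosins, were not called with age by edgeR, at 0 of 6 and 0 of 7. At an unadjusted p under 0.05 there were 2 and 1, all lower, with 0 satellite and 1 intrafusal gene called by DESeq2 and 1 and 0 by limma-voom. With GB 2 of the 6 satellite genes rose, and 3 of the 7 intrafusal genes rose and 1 fell, beside 24.4% of all genes called higher and 28.8% lower, and these counts are not read as a result about the markers. Satellite markers summed to 46.5 to 56.7 CPM in aged GB libraries and 33.4 to 40.9 CPM in aged vehicle libraries. Young replicates 1, 2 and 3 had 53.6, 40.3 and 41.5 CPM. The largest part was Cdh15, at means of 29.6, 21.5 and 23.8 CPM in aged GB, aged vehicle and young vehicle libraries. Pax7, chosen for mention after its values were seen, had 1.56, 1.98 and 3.63 CPM in that order. The sum is therefore not read as 1 pattern of the list. Intrafusal markers share Myh6 with the heart list. They summed to 32.4 to 47.1 CPM in aged GB libraries and 31.2 to 35.9 CPM in aged vehicle libraries. Young replicates 1, 2 and 3 had intrafusal sums of 83.1, 35.6 and 34.9 CPM. In that order Myh6 had 34.4, 2.50 and 2.66 CPM. Myh7b, a further myosin heavy chain chosen for mention after its values were seen, had 19.9, 7.17 and 6.79 CPM. Replicate 1 thus stood apart in this sum mainly through Myh6 and Myh7b, which are also on the list of cardiac-type sarcomere genes. The part of satellite and intrafusal markers in the levels of Myh3 and Myh8 was not tested.

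Among 17 transcription factors known to act on sarcomere genes, 1 rose and 3 fell with age, beside 4.32% and 4.28% of all genes. Srf, the factor that binds CArG boxes such as those shown for Actc1 and Acta1, averaged 50.9 ± 3.57 CPM in aged GB libraries, 60.2 ± 2.49 CPM in aged vehicle libraries and 89.7 ± 1.85 CPM in young vehicle libraries (SD, n = 3 each). With age it fell by 0.58 on the log2 scale (SE 0.08, edgeR adjusted p = 0.00104). Nfix, which represses embryonic and promotes fetal muscle genes, fell by 0.78 with age (SE 0.09) and by 1.32 with GB (SE 0.09). With GB 12 of the 17 fell and 1 rose, beside 28.8% and 24.4% of all genes, and 10 were lower with the offset for transcript length. These levels stand beside those of the 5 genes as measurements, and a link between them was not tested.

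The 5 genes had no pattern in common over the 9 libraries. Pearson correlations of log2 CPM between pairs of them lay between -0.69 for Myh8 with Myl4 and 0.53 for Myl4 with Tnnt2, values that share the library groups. Among 12565 genes whose mean reached 1 CPM in some group, those most like Actc1 were Maz, a zinc finger transcription factor (r = 0.984), Synpo2l, a Z-disc protein (r = 0.981), and Klhl23 (r = 0.980). Synpo2l averaged 132 CPM in aged GB libraries, 119 CPM in aged vehicle libraries and 236 CPM in young vehicle libraries. Most like Myh8 were Ehbp1 (r = 0.987), Bicc1 (r = 0.975) and Pclo (r = 0.974), and most like Myh3 were Ggcx (r = 0.867), Gcfc2 (r = 0.830) and Plxdc1 (r = 0.824).

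The nearest patterns to Myl4 were those of Slc7a6os (r = 0.982), Osgin1 (r = 0.982) and Tut1 (r = 0.981), all higher in GB libraries. Among the patterns nearest to Tnnt2 were those of Igkc (r = 0.936), an immunoglobulin light chain constant region, and Ass1 (r = 0.934). These are among the highest of many correlations over only 9 libraries in 3 groups and are given as description.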

How the data were processed

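RNA was sequenced from 9 gastrocnemius libraries. TRIzol extraction and a KAPA mRNA kit were used, per the labels' protocols. The authors deposited whole-number read counts per gene beside gene lengths. HISAT2, SAMtools, FastQC and DESeq2 (no versions) and the builds mm10 and GRCm39 appear in the submitters' processing notes. The read counter, annotation and strand setting were not given in the sources used here. Groups and replicate numbers came from sample titles.

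The test was edgeR's (4.0.16, under R 4.3.3) on the deposited counts. After filterByExpr (count 10, total 15) and TMM scaling, 1 robust quasi-likelihood model covered all 9 libraries. Two-sided p-values were Benjamini-Hochberg adjusted over 17534 genes, with calls at an adjusted p under 0.05. The SE is the log2 fold change divided by the square root of F, in absolute size. Shares were tested with exact permutation tests over libraries. The members and gene lists were chosen with earlier results of these data known. Named genes were the members, their adult counterparts, Chrng and Myog, up to 4 called genes with the largest fold change per list and comparison, and the 3 genes most like each member (log2 CPM, prior count 2). Some genes that this rule took are not described here.

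Alternatives were 3 other scalings, no filter, DESeq2 1.42.0, limma-voom (limma 3.58.1), robust=FALSE, fits of 2 groups, a replicate block, a length trend offset (lowess, span 0.3) and leaving out each library. Transcript lengths (GENCODE M21, longest coding transcript, matched by symbol for 95.2% of genes tested) were added after seeing the data. Matched genes without a coding transcript took their longest transcript, and unmatched genes kept the table's length. The procedure was tested on simulated counts of aged vehicle against young vehicle, and the GB comparison with its length trend was not simulated. Replicate numbers were not found to pair libraries. Counts cover counting error only, as reads carry no molecular identifiers in these sources.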

Additional observations from a re-analysis of the deposited data

How the results depend on the processing

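The fall of Actc1 with age kept its direction and call under all 20 alternatives, as did its lower level in aged GB than in young vehicle libraries. Over the 15 fold changes of the 5 genes, 271 of 300 alternative values kept direction and side of the threshold, 9 lost the call, 5 gained it and 15 changed sign. Genes called with age numbered 1508, against 2400 with DESeq2 and 749 to 2010 when 1 library was left out (young replicate 3 out, 749; young replicate 2 out, 866; aged vehicle replicate 3 out, 823; aged vehicle replicate 2 out, 935).

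For aged GB minus aged vehicle, library totals gave -0.93 for Myh3, 0.053 for Actc1 and 0.43 for Myl4, the table's length trend -0.054 for Myh8 and -0.044 for Actc1, and the transcript length trend 0.25 for Myh3, -0.12 for Myh8, 0.048 for Actc1 and 0.034 for Myl4. For aged GB minus young vehicle, Myh3 had -0.88 with totals and 0.28 with transcript length, Myh8 -0.37 and -0.39 with the table and transcript trends, Myl4 0.060 with transcript length, and Tnnt2 -0.14 with totals and -0.34 with transcript length. Tnnt2 gave 0.92, called, in a fit of aged GB and aged vehicle libraries alone. With age, values near 0 changed sign: Myl4 had -0.028 with upper-quartile factors and -0.025 with limma-voom, and Myh3 -0.00041 with limma-voom. The cause was not tested.

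Leaving out 1 library, Myh3 ranged over -0.30 to 0.20, Myl4 over -0.23 to 0.15, Tnnt2 over -0.90 to 0.61 and Myh6 over -2.32 to 0.53 with age. Tnnt2 ranged over 0.78 to 1.01 and Ankrd1 over -0.19 to 0.26 for aged GB minus aged vehicle, and Tnnt2 over 0.023 to 1.52 for aged GB minus young vehicle. In percentage points, the share of Myh3 plus Myh8 ranged over -0.0014 to 0.0022 and that of Tnnt2 over -0.0043 to 0.0015 for aged GB minus young vehicle, and that of Tnnt2 over -0.0029 to 0.0029 with age. The first was also -0.00067 for raw counts and -0.00065 per transcript length. With 2 libraries left in a group the exact test cannot go below 0.2.

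Of other genes named, sign changes with GB were -0.38 for Myh4, -0.18 for Myog and -0.49 for Ankrd1 with totals, -0.35 for Myog, -0.30 for Mymx and -0.16 for Ankrd1 with the table's length trend, -0.19, -0.45 and -0.23 for the same 3 with the transcript trend, and -5.6e-05 for Ankrd1 without the filter.

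The replicate numbers do not pair the libraries: same-numbered libraries correlated at -0.03 to 0.06 in their deviations from group means, with 0 of 9 pairs over 0.1. With the replicate number as a block, 1312 genes were called with age, 8958 for aged GB minus aged vehicle and 9025 for aged GB minus young vehicle, Myh3 had -0.0083 and Myl4 -0.0053 with age, and no call of the 5 genes changed. Depth limits the precision of Myh3, Myh8, Myl4 and Tnnt2, at 95 to 708 counts per library.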
